A study of Mus musculus with 39 samples.

Results

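The smooth muscle contractile genes described here are Acta2, Actg2, Myh11, Tagln, Cnn1, Smtn, Lmod1, Synpo2, Des and Myocd. They were chosen by symbol, and all 10 were found among the 21561 Ensembl genes that the deposited count tables share. Their mRNA was measured by RNA-seq in 39 libraries of mouse gubernaculum and testis, which fall into 13 groups of 3. All mice were C57BL/6J males, and the ages are postnatal days 8, 23 and 40 (P8, P23 and P40). WT mice carried the mouse Insl3 gene, INSL3-KI mice were homozygous for a minke whale INSL3 coding sequence placed at the mouse Insl3 locus in ES cells, with the selection cassette removed by Cre, and the third genotype is labelled INSL3-KO, a knockout of Insl3 (its counts are given below). The gubernaculum groups are the 3 genotypes at P8 and, without INSL3-KO, P23. The testis groups are the 3 genotypes at P8 and P23 and, without INSL3-KO, P40. Since INSL3, a Leydig cell hormone, acts on the gubernaculum to bring the testis down, the comparisons ask how the contractile genes of both tissues differ when the hormone is replaced or absent. The labels and the study's methods give the 3 libraries of a group as biological replicates.

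Smooth muscle cells contract when calcium, through calmodulin and myosin light chain kinase, lets myosin pull on actin filaments. Smooth muscle alpha actin (Acta2) and gamma actin (Actg2) form the filaments, Myh11 is the heavy chain of smooth muscle myosin, and transgelin (Tagln), calponin 1 (Cnn1), smoothelin (Smtn) and leiomodin 1 (Lmod1) bind or assemble actin. Synaptopodin 2 (Synpo2) sits at dense bodies and Z-discs, desmin (Des) is the intermediate filament of muscle, and myocardin (Myocd) is the coactivator that drives many of these genes together with serum response factor (Srf) at CArG boxes. In the male tract these genes mark the muscular coat of ducts, vascular smooth muscle and the peritubular myoid cells around the seminiferous tubules. Des and Synpo2 are also genes of skeletal muscle, which forms the cremaster of the gubernaculum. In bulk tissue, fewer cells of a type and less RNA per cell cannot be told apart.

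RefSeq promoter sequence (GRCm38.p6, 250 bases before the transcript start) was at hand for 6 of the 10 genes, Acta2, Cnn1, Smtn, Lmod1, Synpo2 and Des. A perfect CArG box, searched on both strands, was in 0 of these 6 windows and in 1.47% of 32851 windows of all genes. With 1 G or C allowed in the A/T core, 1 of the 6, that of Acta2, held a match, against 8.59% of all windows. The Acta2 window held 2 such matches, and 0.67% of all windows held at least 2. They are shown because CArG boxes are the sites named above; each stretch is on the minus strand, read 5′ to 3′, and the capitals mark the match. Both stretches also overlap an exon of Acta2 in the GENCODE M21 annotation. A match is a description of the letters, and binding at these sites was not tested.
Acta2, match whose first base is at -84 from the RefSeq start, chr19:34255438-34255467: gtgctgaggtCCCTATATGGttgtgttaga
Acta2, match whose first base is at -34 from the RefSeq start, chr19:34255388-34255417: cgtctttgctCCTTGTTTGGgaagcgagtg

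In the same annotation (GRCm38) Acta2 lies on chromosome 19 (34241090 to 34255590), Actg2 on chromosome 6 (83512905 to 83536265), Myh11 on chromosome 16 (14194535 to 14291372) and Tagln and Cnn1 on chromosome 9 (45929619 to 45936058 and 22099216 to 22109630). Smtn and Myocd lie on chromosome 11 (3517523 to 3540612 and 65176561 to 65269989), Lmod1 and Des on chromosome 1 (135324807 to 135368065 and 75360329 to 75368579) and Synpo2 on chromosome 3 (123076519 to 123236149). The genes therefore do not form a cluster. For all 10, no 150-base window of the longest coding transcript occurred in a transcript of another gene, so that reads as long as these could be placed without an exact copy elsewhere, the actins included.

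Before the results, several properties of the libraries are needed. Total counts ranged from 29861447 to 45260372 per library. All INSL3-KO libraries and the libraries labelled P23 WT testis stand in a second table of 12 libraries, so that in the comparisons of INSL3-KO with WT at P8, of INSL3-KI with INSL3-KO, and of INSL3-KI with WT testis at P23 the table and the genotype cannot be told apart. Insl3 itself had 2722 to 3524 counts in P8 WT testis, 15 to 33 in P8 INSL3-KI testis and 613 to 906 in the libraries labelled P8 INSL3-KO testis, but 0 to 5 in those labelled P23 INSL3-KO testis. The libraries labelled P23 WT testis held 62911 to 72940 counts of the spermatid gene Prm1, more than the 35292 to 36071 in those labelled P40 WT, so their germ cell content goes against the order of the ages. Replicate 2 of P23 INSL3-KI gubernaculum, replicate 3 of P23 WT gubernaculum, replicate 3 of P23 INSL3-KI testis and replicate 1 of P40 INSL3-KI testis stood apart from the rest of their groups.

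Levels are given as FPKM, fragments scaled to the length of the transcript and the depth of the library, for each library in the order of replicates 1, 2 and 3. A gene was called lower or higher where it changed at least 2-fold with an edgeR adjusted p-value below 0.01. Of the 10 genes, 9 had their highest group mean in P8 INSL3-KI gubernaculum, at 4719 ± 302 FPKM for Acta2 and 869 ± 156 FPKM for Myh11 (SD, n = 3). For Acta2, Actg2, Tagln and Cnn1 the libraries of that group lay above those of the group next in order, while for Myh11, Smtn, Lmod1, Synpo2 and Myocd they overlapped with it. Des was highest in P23 WT gubernaculum, with a mean of 1352 FPKM, and apart from the next group.

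**Figure D1:**
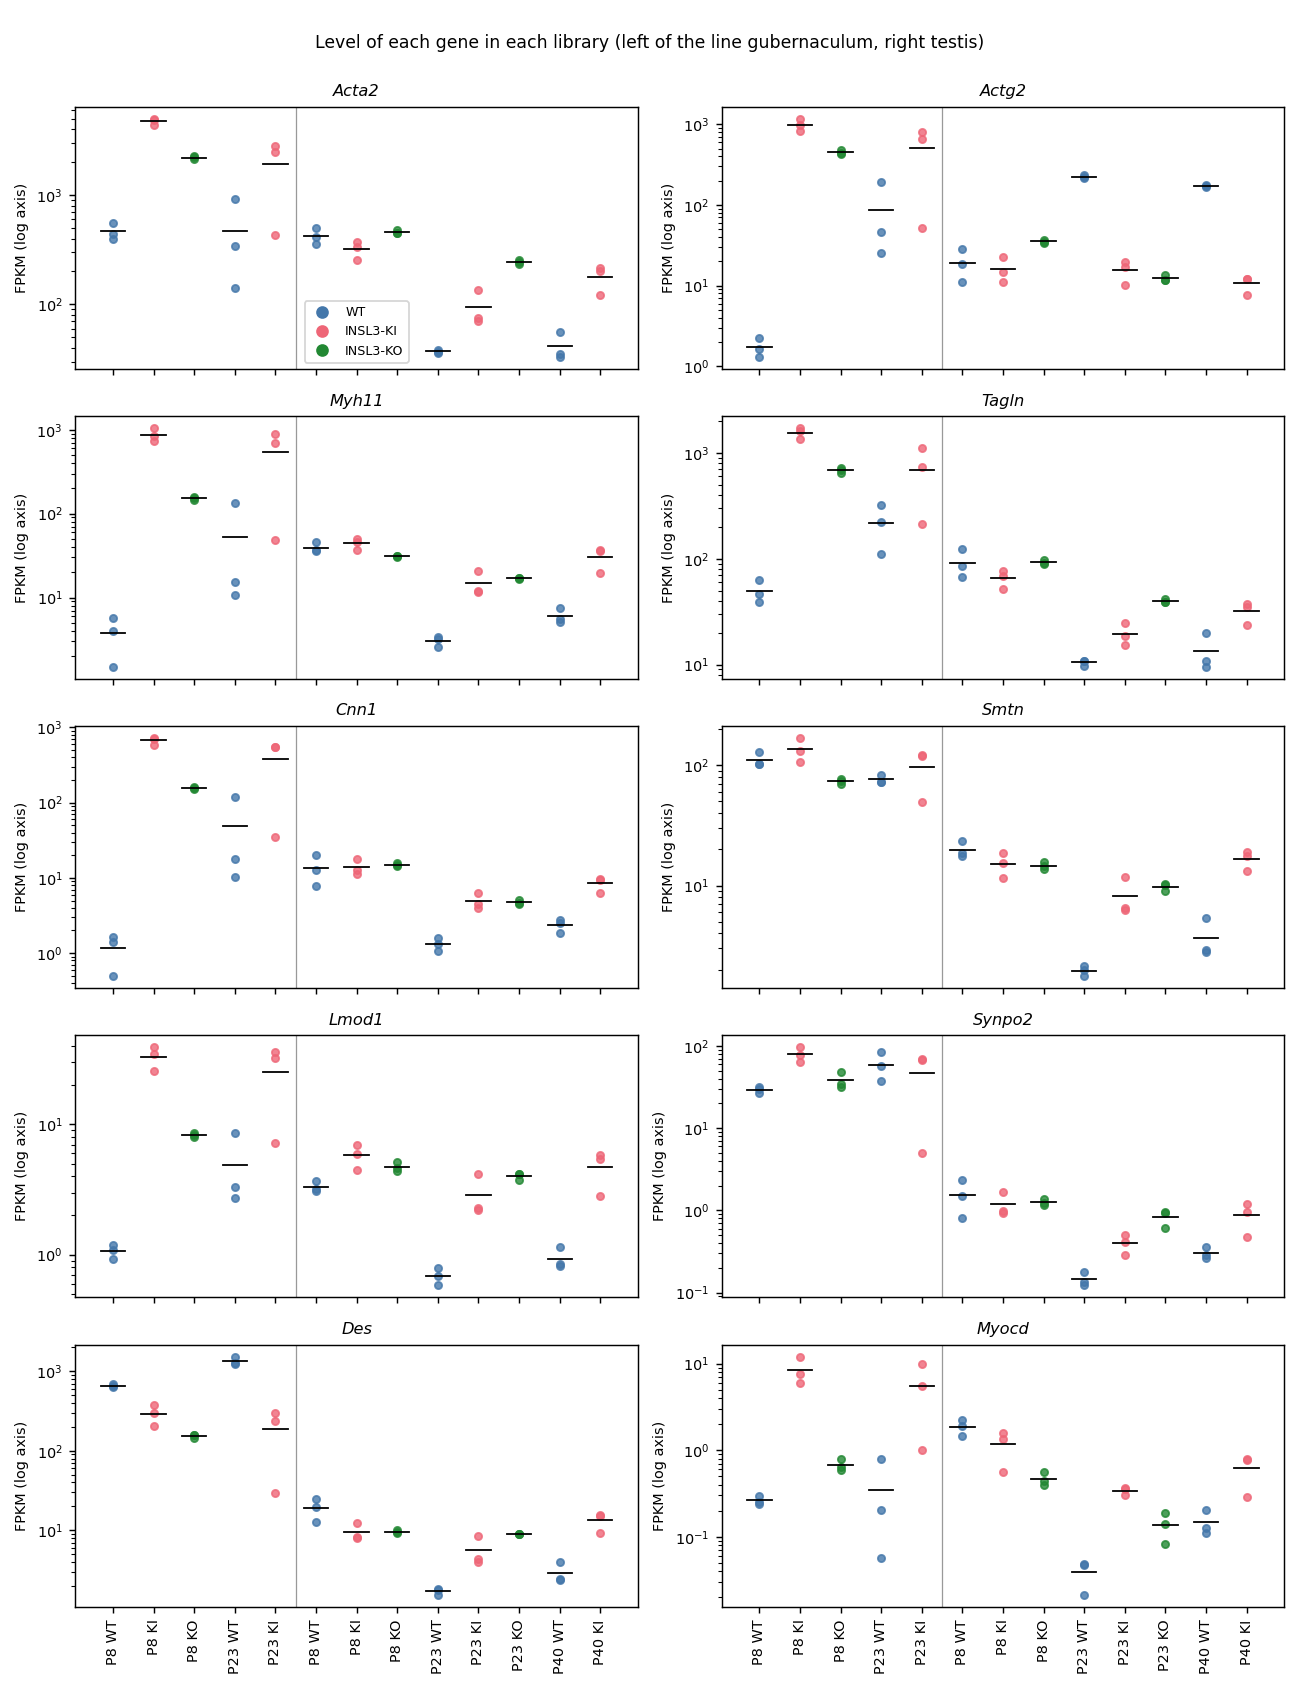
FPKM (log axis) of each of the 10 genes in each of the 39 libraries, by group; points are libraries, coloured by genotype, and bars are group means. In P8 gubernaculum the mutant points of Actg2, Myh11, Cnn1 and Lmod1 lie far above the WT points, those of Des lie below them, and in testis at P23 and P40 Actg2 runs opposite to the other genes.

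In P8 gubernaculum, the thin-filament and myosin genes were far higher in INSL3-KI than in WT, and Des was lower. Of the 10 genes, 7 were called higher, against 14.4% of the 15500 genes tested, and 1 was called lower, against 9.70%. The median log2 fold change of the 10 was 4.57, beside 0.02 over all genes tested.

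Actg2, the actin of enteric and urogenital smooth muscle, stood at 2.23, 1.30 and 1.64 FPKM in P8 WT gubernaculum and at 821, 967 and 1162 FPKM in INSL3-KI. The groups were far apart, with a 457-fold difference (log2 fold change 8.84 ± 0.28 SE, edgeR adjusted p = 2.8e-07). Acta2 stood at 559, 440 and 395 FPKM in WT and at 4380, 4816 and 4961 FPKM in INSL3-KI, an 8.04-fold difference (log2 3.01 ± 0.18, edgeR adjusted p = 5.1e-06). Both actins were thus higher, but from very different starting levels, since the WT tissue held little Actg2 and much Acta2. The share of Actg2 in the summed FPKM of the 10 genes was 0.129% in WT and 10.5% in INSL3-KI, while that of Des was 50.1% and 3.10%.

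Myh11, the motor, was at 1.5, 3.95 and 5.72 FPKM in P8 WT gubernaculum and at 732, 1039 and 836 FPKM in INSL3-KI (181-fold, log2 7.50 ± 0.54, edgeR adjusted p = 1.5e-05). Cnn1, which restrains the myosin ATPase, was at 1.62, 1.40 and 0.495 FPKM in WT and at 592, 728 and 707 FPKM in INSL3-KI. With a 484-fold difference it changed most of the 10 (log2 8.92 ± 0.41, edgeR adjusted p = 1.4e-06). Tagln, an actin-bundling protein, went from 62.8, 46.1 and 39.1 FPKM to 1343, 1706 and 1606 FPKM (24.9-fold, log2 4.64 ± 0.22, edgeR adjusted p = 1.8e-06). Lmod1, which nucleates actin filaments, went from 1.18, 0.919 and 1.08 FPKM to 25.7, 39.2 and 34.8 FPKM (24.8-fold, log2 4.63 ± 0.20, edgeR adjusted p = 1.2e-06). For these 4 genes no INSL3-KI library overlapped a WT library. Over the 10 genes, 8 lay wholly above WT and 1 wholly below, as did 51% and 18% of the 13959 genes with at least 1 FPKM.

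Myocd, the transcriptional coactivator, had 45, 51 and 57 counts in P8 WT gubernaculum and 1005, 1643 and 1152 counts in INSL3-KI, or 0.262 ± 0.0304 and 8.50 ± 3.15 FPKM (SD, n = 3). It was 22.8-fold higher (log2 4.51 ± 0.27, edgeR adjusted p = 4.9e-06). Its partner Srf, at a log2 fold change of -0.72 (edgeR adjusted p = 0.0016), and the related coactivators Mrtfa (-0.45, edgeR adjusted p = 0.0054) and Mrtfb (0.56, edgeR adjusted p = 0.24) did not pass the fold threshold or the test.

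Des was called lower, and Smtn and Synpo2 were not called. Des was at 693, 635 and 647 FPKM in P8 WT gubernaculum and at 204, 377 and 299 FPKM in INSL3-KI, with no overlap and a 2.83-fold lower level (log2 -1.5 ± 0.22, edgeR adjusted p = 0.00075), a call that was lost with all gubernaculum groups in 1 fit. Smtn, at 128, 102 and 102 FPKM against 107, 169 and 132 FPKM, overlapped between the groups (log2 0.51 ± 0.17, edgeR adjusted p = 0.037). Synpo2 was at 31.8, 26.8 and 29.7 FPKM against 63.2, 96.2 and 78.1 FPKM. These FPKM do not overlap, but the test on counts gave a log2 fold change of 0.82 ± 0.20 (edgeR adjusted p = 0.0093), below the fold threshold. On library size alone and with limma on FPKM it was called higher, at log2 fold changes of 1.13 and 1.38. The FPKM of Synpo2 assume transcript lengths that differ between libraries, as described below for Smtn.

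In INSL3-KO gubernaculum at P8, 6 of the 7 genes called higher in INSL3-KI were called higher as well, each with a smaller fold, and Des was again called lower, with a larger one. Myocd was not called. The comparison shares its WT libraries with that of INSL3-KI and lies across the tables. Of the 10 genes, 6 were called higher, against 15.5% of the 15609 genes tested, and 1 lower, against 15.2%, with a median log2 fold change of 2.45 beside 0.03 over all genes. Actg2 stood at 431, 445 and 473 FPKM (237-fold over WT, log2 7.89 ± 0.21, edgeR adjusted p = 7.9e-07) and Cnn1 at 155, 162 and 154 FPKM (133-fold, log2 7.06 ± 0.36, edgeR adjusted p = 5.6e-06). Myh11 stood at 146, 159 and 152 FPKM (37.2-fold), Tagln at 650, 713 and 693 FPKM (12.4-fold), Lmod1 at 8.27, 7.97 and 8.66 FPKM (7-fold) and Acta2 at 2124, 2207 and 2270 FPKM (4.24-fold), with edgeR adjusted p-values between 2.6e-06 and 7.8e-05. The INSL3-KO libraries lay above WT for all 6, as did 46.6% of the 13956 genes with at least 1 FPKM.

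Des was at 144, 159 and 158 FPKM in P8 INSL3-KO gubernaculum, 4.80-fold below WT (log2 -2.26 ± 0.07, edgeR adjusted p = 1.1e-06). Myocd had 123, 120 and 151 counts, a 1.96-fold difference from WT just short of the fold threshold (log2 0.97 ± 0.24, edgeR adjusted p = 0.0094). The level of the coactivator thus stood far nearer to WT here than in INSL3-KI. Smtn (70.4, 74.3 and 76.7 FPKM, log2 -0.72, edgeR adjusted p = 0.00019) and Synpo2 (31.6, 48.0 and 34.5 FPKM, log2 -0.44, edgeR adjusted p = 0.011) were not called. For Synpo2 the direction depended on the unit, at 0.34 on the log2(FPKM + 1) scale. Srf (log2 -1.25, edgeR adjusted p = 9.6e-06) and Mrtfa (log2 -1.44, edgeR adjusted p = 1.3e-05) were called lower, and Mrtfb was not called (log2 -0.27, edgeR adjusted p = 0.84).

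Set directly against each other at P8, again across the tables, INSL3-KI gubernaculum exceeded INSL3-KO for 6 of the 10 genes, against 11.9% of the 15642 genes called higher, and for 0 of 10 was it called lower (10.5%). The difference was largest for Myocd, 11.3-fold (log2 3.50 ± 0.24, edgeR adjusted p = 3.6e-05), followed by Myh11 at 4.72-fold, Cnn1 at 3.54-fold, Lmod1 at 3.45-fold, Synpo2 at 2.32-fold and Smtn at 2.28-fold, with edgeR adjusted p-values up to 0.00083. Acta2 (log2 0.88 ± 0.07), Actg2 (0.91 ± 0.13) and Tagln (0.97 ± 0.10) lay just under the fold threshold with edgeR adjusted p-values of 7.3e-05, 0.00075 and 0.00019. In all 10 genes every INSL3-KI library had a higher FPKM than every INSL3-KO library. Of the 13994 genes with at least 1 FPKM, 44.3% showed that separation in the same direction. With all gubernaculum groups in 1 fit, 2 of the 10 genes were called in place of 6.

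**Figure D2:**
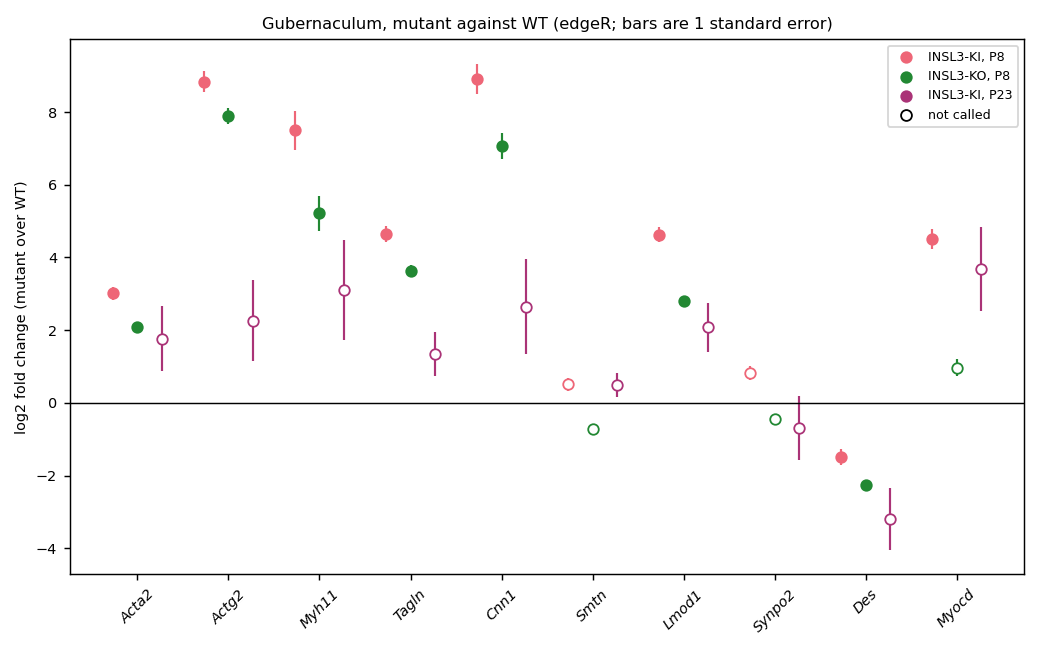
log2 fold change of each gene against WT of the same age in gubernaculum (edgeR), with bars of 1 standard error; filled points are genes called lower or higher, open points are the rest. At P8 Actg2 and Cnn1 stood highest in both mutants and Des lay below 0; at P23 the standard errors of Cnn1, Myh11, Actg2 and Myocd exceeded 1 and no gene was called.

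Other genes of the contractile machinery were split in P8 gubernaculum. Of 29 further genes of the contractile apparatus, 12 were called higher and 4 lower in INSL3-KI, and 5 higher and 8 lower in INSL3-KO. Of 24 genes of calcium and relaxation signalling, 10 were higher and 2 lower in INSL3-KI, and 6 higher and 4 lower in INSL3-KO. Among the regulators, 3 of 18 tested were higher and 4 lower in INSL3-KI, against 3 and 7 of 19 in INSL3-KO. Over all genes tested, 14.4% were called higher and 9.70% lower in INSL3-KI, and 15.5% and 15.2% in INSL3-KO. The regulators called higher, and the contractile apparatus genes called higher in INSL3-KO, lay near these shares. Calls in both directions were made in each of these lists.

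In INSL3-KI the largest rises over the lists were those of Foxf2, a forkhead factor of visceral mesenchyme, Mylk, the myosin light chain kinase (log2 6.02, edgeR adjusted p = 1.2e-06), and Kcnmb1, the smooth muscle subunit of the BK potassium channel (log2 5.65, edgeR adjusted p = 3.6e-05). Foxf2 had 0 counts in each P8 WT gubernaculum library, 1891 to 2631 in INSL3-KI and 765 to 1023 in INSL3-KO, so no fold is given. The largest falls were those of Casq2, a calcium store protein of striated muscle (log2 -5.75, edgeR adjusted p = 1.3e-07), Mef2c, a muscle transcription factor (log2 -3.81, edgeR adjusted p = 6e-07), and the small heat shock protein gene Hspb1 (log2 -2.74, edgeR adjusted p = 4.2e-06). In INSL3-KO, Mylk (log2 5.43, edgeR adjusted p = 2.3e-06) and Kcnmb1 (log2 4.10, edgeR adjusted p = 0.00042) were again among the largest rises. The largest falls there were those of Palld, an actin-associated protein gene (log2 -5.29, edgeR adjusted p = 9.4e-07), Klf5 (log2 -4.17, edgeR adjusted p = 1.7e-06) and Prkg1, the cGMP-dependent kinase (log2 -3.95, edgeR adjusted p = 5.5e-06).

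Genes of several other cell types moved along with the contractile genes in P8 gubernaculum. The counts of calls stand beside 14.4% higher and 9.70% lower of all genes in INSL3-KI. In INSL3-KO these shares were 15.5% and 15.2%. The summed FPKM of 8 duct epithelium genes was 18.3 to 63.6 in P8 WT gubernaculum, 841 to 973 in INSL3-KI and 364 to 391 in INSL3-KO, with all 8 called higher in each mutant. Of 10 genes of epididymal epithelium, with sums of 0.283 to 1.06, 493 to 1226 and 674 to 746 FPKM, 2 of the 3 tested were called higher in each mutant. In WT, 6 of the 10 were at 0 in all libraries, Lcn5 and Lcn8 among them. The 14 skeletal muscle genes summed to 19542 to 20482 FPKM in WT, 586 to 1017 in INSL3-KI and 5640 to 6226 in INSL3-KO, with 13 and 14 of the 14 called lower. All 6 adipocyte genes were called higher in both mutants. The 10 endothelial genes summed to 151 to 183 FPKM in WT, 259 to 323 in INSL3-KI and 249 to 264 in INSL3-KO, with 3 called higher in each. The 9 fibroblast genes summed to 8891 to 9284, 4116 to 6190 and 6524 to 6979 FPKM, with 4 called lower in INSL3-KI. In INSL3-KO 3 were called lower and 1 higher. The 8 genes of the Sertoli list summed to 86.7 to 111, 603 to 1683 and 547 to 648 FPKM, and 2 of the 6 tested were called higher in each mutant. Another 1 of these 6 was called lower in the knockout. Their median log2 fold change against WT was negative for both mutants, at -0.53 (INSL3-KI) and -0.29 (INSL3-KO). The higher sums thus do not describe the Sertoli list as a whole. Of the 9 pericyte and vascular mural genes INSL3-KI had 1 called higher and INSL3-KO 2 called lower, with sums of 177 to 213 FPKM in WT, 290 to 303 in INSL3-KI and 181 to 189 in INSL3-KO. The mural count in INSL3-KI lay near the share over all genes. The tissue labelled gubernaculum thus differed between genotypes in several cell types, and their part in the levels of the 10 genes was not tested.

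**Figure D3:**
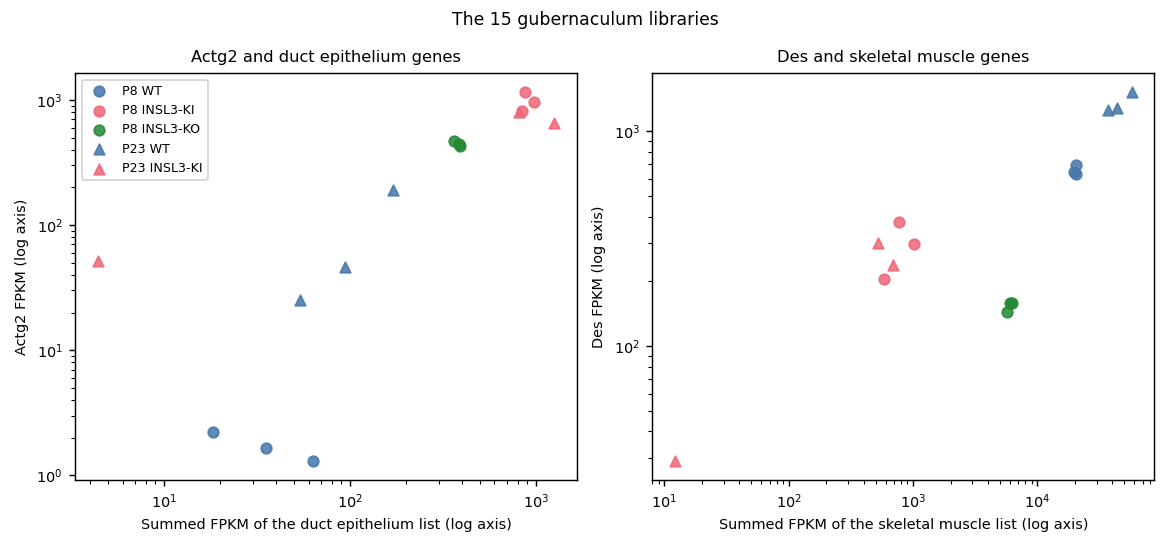
The 15 gubernaculum libraries, with the FPKM of Actg2 against the summed FPKM of 8 duct epithelium genes (left) and that of Des against 14 skeletal muscle genes (right), all on log axes. Actg2 was highest in the libraries with the highest duct sums, and 1 P23 INSL3-KI library had a duct sum of 4.43 with 51.8 FPKM of Actg2. Des was highest in WT, where the skeletal muscle sums were highest. Between the P8 mutants this order was reversed, with more Des in INSL3-KI (204 to 377 FPKM) than in INSL3-KO (144 to 159) at lower skeletal muscle sums (586 to 1017 against 5640 to 6226).

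At P23 the contractile genes of the gubernaculum varied so much between libraries of 1 group that none of the 10 was called between INSL3-KI and WT by edgeR (backgrounds 0.212% higher and 2.35% lower of 15082 genes). An unadjusted p under 0.05 was reached by 5063 of these genes. DESeq2 called 1 of the 10 higher and 1 lower, and over all genes it called 830 higher and 1389 lower. Actg2 stood at 25.4, 46.4 and 191 FPKM in WT and at 801, 51.8 and 650 FPKM in INSL3-KI (log2 2.26 ± 1.12, edgeR adjusted p = 0.21). Myh11 stood at 10.7, 15.3 and 133 FPKM in WT and at 879, 49.1 and 696 FPKM in INSL3-KI (log2 3.10 ± 1.38, edgeR adjusted p = 0.17). In both genes replicate 3 of WT was the highest of its group and replicate 2 of INSL3-KI by far the lowest, so that the groups overlapped.

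Cnn1 (10.2, 18.0 and 120 FPKM against 549, 34.7 and 546 FPKM) and Acta2 (140, 341 and 916 FPKM against 2489, 432 and 2828 FPKM) had the same layout, as did Lmod1, at 2.72, 3.34 and 8.68 FPKM against 32.5, 7.24 and 36.3 FPKM. Myocd was the only gene of the 10 with each INSL3-KI library above each WT library, at 10, 1.01 and 5.53 FPKM against 0.0567, 0.202 and 0.789 FPKM, and still missed the test (log2 3.68 ± 1.16, edgeR adjusted p = 0.087). Des was the only one with each INSL3-KI library below, at 237, 29.1 and 303 FPKM against 1527, 1279 and 1250 FPKM (log2 -3.19 ± 0.86, edgeR adjusted p = 0.061). Over all 13951 genes with at least 1 FPKM, 31.9% lay wholly above and 13.9% wholly below. Tagln (log2 1.35, edgeR adjusted p = 0.18), Smtn (0.48, edgeR adjusted p = 0.34) and Synpo2 (-0.70, edgeR adjusted p = 0.60) overlapped.

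The libraries that stood apart differed in tissue content as well. The duct epithelium sum was 54.1, 94.6 and 170 FPKM in P23 WT gubernaculum and 808, 4.43 and 1261 FPKM in INSL3-KI, and the epididymal sum was 0.126, 0.228 and 630 FPKM against 1538, 1.40 and 5476 FPKM. Replicate 2 of INSL3-KI had an adipocyte sum of 11688 FPKM and skeletal muscle genes at 12.2 FPKM in sum, with Ckm at 0 counts. Without this library and replicate 3 of WT, an alternative added after seeing the data, 3 of the 10 genes were called higher, Actg2 (log2 3.97, edgeR adjusted p = 0.0092), Cnn1 (4.86, edgeR adjusted p = 0.0065) and Lmod1 (3.11, edgeR adjusted p = 0.0046). Myh11 (5.52, edgeR adjusted p = 0.011) and Myocd (5.49, edgeR adjusted p = 0.012) were then just short of the test. Leaving out either library alone gave no call. The libraries left out were the lowest of INSL3-KI and the highest of WT in the genes called. Leaving them out together therefore parts the groups by choice, and these calls cannot test whether the genotypes differ.

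Among the related genes at P23, 1 of 29 of the contractile apparatus, Hspb1 (log2 -3.47, edgeR adjusted p = 0.0060), and 1 of 18 regulators, Mef2c (log2 -4.73, edgeR adjusted p = 0.0015), were called lower in INSL3-KI gubernaculum. Of the 24 signalling genes 0 were called, and Srf (-0.28), Mrtfa (-0.59) and Mrtfb (0.05) had edgeR adjusted p-values of 0.38, 0.070 and 0.86. Skeletal muscle genes were called lower for 10 of 14. Over all genes tested 2.35% were called lower, and the contractile apparatus count lay near this share.

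From P8 to P23 in WT gubernaculum, 5 of the 10 genes were called higher, against 6.17% of the 14941 genes tested, and 0 lower, against 4.34%. Actg2 was 52.8-fold higher at P23 (log2 5.72 ± 0.77, edgeR adjusted p = 0.0025), Cnn1 46.3-fold (5.53 ± 0.99, edgeR adjusted p = 0.0062), Lmod1 4.83-fold (edgeR adjusted p = 0.0060), Tagln 4.65-fold (edgeR adjusted p = 0.0037) and Des 2.22-fold (edgeR adjusted p = 0.0090). The lowest P23 library exceeded the highest P8 library in each of these 5, as in 23.4% of genes with at least 1 FPKM. Acta2 had nearly equal means, 465 ± 84.7 FPKM at P8 and 466 ± 403 FPKM at P23 (log2 0.04 ± 0.54, edgeR adjusted p = 0.96), and Myh11 missed the test despite a log2 fold change of 3.83 (edgeR adjusted p = 0.022). These calls were fragile: leaving out any 1 of the 3 P8 WT libraries left 0 genes called, leaving out replicate 2 of P23 left 3, and a fit with the replicate number as a block left 0. The difference between the INSL3-KI effects at P23 and at P8 was called for 0 of the 10 genes (backgrounds 0.0874% higher and 0.194% lower of 16016). An unadjusted p under 0.05 was reached by 4094 genes. DESeq2 called 5 of the 10 lower, and over all genes it called 736 lower and 390 higher. By edgeR the difference was largest for Actg2 (log2 -6.60 ± 1.30, edgeR adjusted p = 0.019) and Cnn1 (-6.30 ± 1.5, edgeR adjusted p = 0.037). Without the 2 libraries that stood apart, 4 were called, Actg2 (-4.89), Cnn1 (-4.09), Tagln (-2.58) and Lmod1 (-1.56), each lower at P23, with edgeR adjusted p-values of 0.0016, 0.0040, 0.0080 and 0.0089. As the libraries were picked by the values of these same genes, these calls are no test of the difference either.

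In WT tissue at P8, gubernaculum and testis expressed different parts of the set. In gubernaculum 3 of the 10 genes were called higher, against 14.1% of the 15624 genes tested, and 5 lower, against 14.3%. The 3 were Des (658 ± 30.6 against 19.1 ± 6.09 FPKM, 47.1-fold, edgeR adjusted p = 7.2e-06), Synpo2 (29.4 ± 2.52 against 1.56 ± 0.776 FPKM, 33.1-fold, edgeR adjusted p = 6.8e-05) and Smtn (111 ± 14.7 against 19.7 ± 3.11 FPKM, 5.06-fold, edgeR adjusted p = 2.1e-05), all SD with n = 3. Cnn1 (8.93-fold), Actg2 (8.28-fold), Myh11 (7.54-fold), Myocd (4.45-fold) and Lmod1 (2.29-fold) were lower in gubernaculum, with edgeR adjusted p-values between 0.00030 and 0.0014. Acta2 (log2 0.58, edgeR adjusted p = 0.026) and Tagln (-0.45, edgeR adjusted p = 0.17) were not called. The skeletal muscle sums were 19542 to 20482 FPKM in WT gubernaculum and 8.78 to 15 FPKM in WT testis. The duct epithelium sums were 18.3 to 63.6 and 37.8 to 174 FPKM, and the epididymal sums 0.283 to 1.06 and 14 to 46.3 FPKM. The part of tissue content in these differences was not tested.

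Smtn differed between the groups in how its counts and FPKM relate. The count of a gene divided by its FPKM and the library total gives, approximately, the transcript length that the FPKM assume. The length so computed can exceed the annotated one. Lmod1, with 1 annotated transcript of 3948 bases, came to 4035 to 4218. For Smtn this length was 2102 to 2238 bases in P8 WT, 2203 to 2257 in P8 INSL3-KO and 2118 to 2550 in P23 WT gubernaculum, but 3196 to 3237 in P8 and 3219 to 3324 in P23 INSL3-KI gubernaculum. In testis it was 3241 or more in every library. Annotated coding transcripts of Smtn span 679 to 3386 bases, and smoothelin is known in a short and a long form. The mix of Smtn transcripts assumed in the FPKM was therefore shorter in WT and INSL3-KO than in INSL3-KI gubernaculum, with no overlap between libraries. These lengths are a description, with no test. For Synpo2 the length spread from 4105 to 9283 bases over all libraries, and for Acta2, Tagln, Lmod1 and Des the highest length was 1.04 to 1.05 times the lowest.

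**Figure D4:**
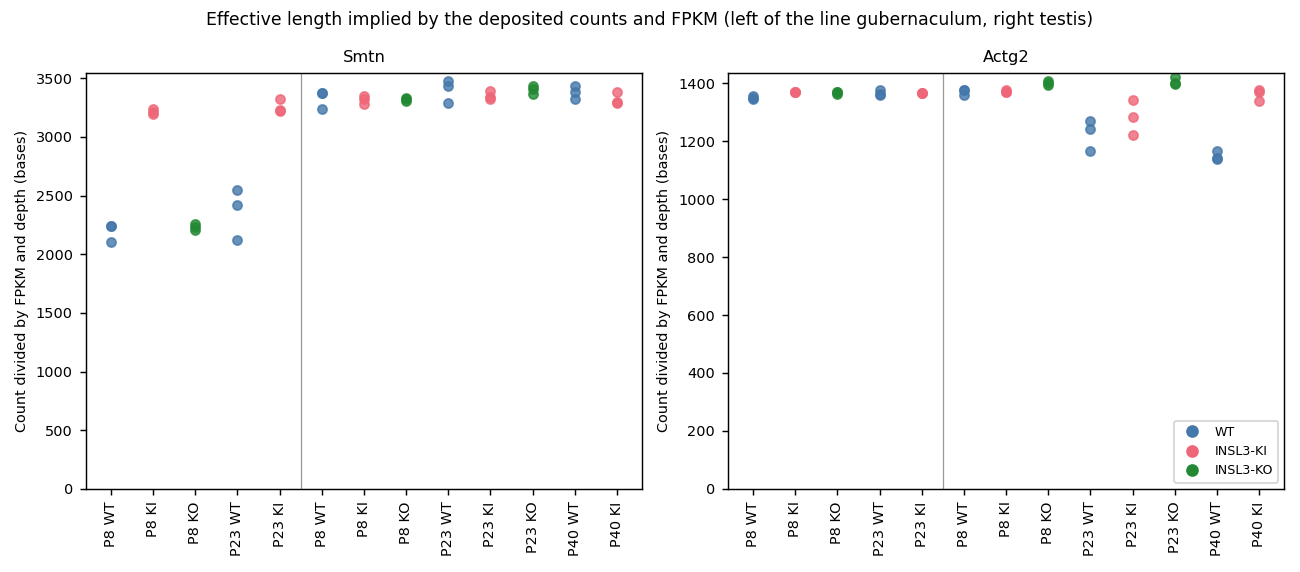
Transcript length in bases implied by counts, FPKM and library totals for Smtn (left) and Actg2 (right); each point is 1 library, coloured by genotype, with gubernaculum left and testis right of the line. Smtn points of WT and INSL3-KO gubernaculum lie between 2102 and 2550 bases and all others at 3196 or above, and Actg2 points are lowest in P40 WT testis, while those of P23 WT and P23 INSL3-KI testis overlap.

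In P8 testis no gene of the set was called between INSL3-KI and WT, and Myocd and Des were called lower in INSL3-KO. INSL3-KI against WT gave 0 of 10 calls by edgeR in either direction (backgrounds 3.03% higher and 3.25% lower of 15702 genes), where 7530 genes had an unadjusted p under 0.05. DESeq2 called 1 of the 10 lower, and over all genes it called 1127 lower and 1013 higher. Acta2, here chiefly known from peritubular myoid cells, stood at 358, 417 and 500 FPKM in WT, at 338, 253 and 370 in INSL3-KI and at 474, 450 and 447 in the libraries labelled INSL3-KO. Myh11 stood at 35.8, 37.0 and 45.3 FPKM in WT, at 45.8, 36.5 and 50.3 in INSL3-KI and at 30.8, 31.6 and 31.2 in INSL3-KO. The groups of INSL3-KI and WT overlapped for both genes. The log2 fold changes of INSL3-KI over WT lay between -1.11 ± 0.28 (Des, edgeR adjusted p = 0.026) and 0.71 ± 0.18 (Lmod1, edgeR adjusted p = 0.027), and only these 2 had libraries without overlap, Des wholly below and Lmod1 wholly above, where 23.5% and 34.2% of genes with at least 1 FPKM did so.

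The libraries labelled P8 INSL3-KO testis, whose Insl3 counts are given above, had 2 of 10 genes called lower, against 8.37% of the 15723 genes tested, and 0 higher, against 5.44%. Myocd had 313, 274 and 376 counts in WT and 96, 76 and 110 in INSL3-KO, a 3.75-fold difference (log2 -1.91 ± 0.23, edgeR adjusted p = 0.00047). Des was at 12.8, 19.6 and 24.9 FPKM in WT and at 9.28, 10.2 and 9.42 FPKM in INSL3-KO (2.09-fold lower, log2 -1.06 ± 0.23, edgeR adjusted p = 0.0064). The call of Des was lost when library size alone was used. Actg2 was at 11.1, 18.3 and 28.3 FPKM in WT and at 36.9, 34.9 and 34.2 in INSL3-KO (log2 0.80 ± 0.30, edgeR adjusted p = 0.055). Between the mutants, Actg2 was lower in INSL3-KI, at 14.8, 11.1 and 22.4 FPKM (2.29-fold, log2 -1.20 ± 0.22, edgeR adjusted p = 0.0074), and 0 of 10 were higher (backgrounds 1.16% lower and 2.76% higher of 15728). That call was lost with library size alone, with limma on FPKM, without replicate 1 of INSL3-KI and without any 1 of the INSL3-KO libraries.

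Related genes that passed the test in P8 testis were all lower in the mutants. Of the 29 contractile apparatus genes 6 were lower in INSL3-KI and 4 in INSL3-KO, of the 23 signalling genes 1 and 3, and of the 18 regulators 3 and 4, with 0 higher in every list. Over all genes tested, 3.25% were called lower in INSL3-KI and 8.37% in INSL3-KO, with 3.03% and 5.44% called higher. The signalling count in INSL3-KI lay near its share. The contractile apparatus and signalling counts in INSL3-KO were not far above theirs. The largest falls in INSL3-KI were those of Heyl (log2 -2.03, edgeR adjusted p = 0.0049), Tpm4 (-1.84, edgeR adjusted p = 0.0049) and Pdlim3 (-1.80, edgeR adjusted p = 0.0049), and in INSL3-KO those of Palld (-2.79, edgeR adjusted p = 0.00020), Chrm2 (-2.38, edgeR adjusted p = 0.0074) and Kcnma1 (-2.05, edgeR adjusted p = 4.4e-05). Palld was thus among the largest falls of both tissues in the comparisons that cross the tables. Srf, Mrtfa and Mrtfb were not called in either mutant, with log2 fold changes between -0.63 and 0.40. The fibroblast sum was 1659, 2580 and 4811 FPKM in WT and 785 to 1371 FPKM in the mutants, with 2 of its 9 genes called lower in INSL3-KI and 4 in INSL3-KO. The duct epithelium sum was 37.8, 109 and 174 FPKM in WT, 40.8, 37.4 and 124 in INSL3-KI and 75.9 to 79.5 in INSL3-KO. The epididymal sum was 14, 44.7 and 46.3 FPKM in WT, 7.23, 6.33 and 83.3 in INSL3-KI and 87.6 to 94.4 in INSL3-KO. The part of these cell types in the levels of Actg2 and the other genes was not tested.

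At P23 the mutant testes differed from the libraries labelled P23 WT in 9 of the 10 genes for INSL3-KO and in 6 for INSL3-KI, with Actg2 called lower and the others called higher. INSL3-KO against WT, within the second table, gave 8 genes higher, against 31.1% of the 16732 genes tested, and 1 lower, against 33.4%. INSL3-KI against WT, across the tables, gave 5 higher (8.81% of 16603) and 1 lower (11.8%). The median log2 fold change of the 10 was 1.70 in INSL3-KO and 1.18 in INSL3-KI, beside 0.06 and 0.08 over all genes. Both comparisons share the WT libraries.

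Actg2 stood at 234, 223 and 216 FPKM in the libraries labelled P23 WT testis, at 16.9, 19.7 and 10.2 in INSL3-KI and at 13.7, 11.6 and 11.6 in INSL3-KO. It was 19.4-fold lower in INSL3-KI (log2 -4.28 ± 0.30, edgeR adjusted p = 0.00038) and, in INSL3-KO, 24.9-fold lower (log2 -4.64 ± 0.08, edgeR adjusted p = 5.5e-12). Acta2 stood at 38.2, 36.2 and 37.0 FPKM in WT, at 74.4, 70.8 and 136 in INSL3-KI and at 243, 253 and 233 in INSL3-KO. It was 4.18-fold higher in INSL3-KO (log2 2.06 ± 0.05, edgeR adjusted p = 4.8e-11) and not called in INSL3-KI (0.77 ± 0.22, edgeR adjusted p = 0.025). In WT, Actg2 made up 79.9% of the summed FPKM of the 10 genes and Acta2 13.2%, while in INSL3-KO these shares were 3.60% and 71.3%.

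Myh11 stood at 2.58, 3.34 and 3.24 FPKM in WT testis at P23, at 11.8, 11.7 and 20.8 in INSL3-KI (3.21-fold, edgeR adjusted p = 0.0023) and at 17.1, 16.7 and 17.1 in INSL3-KO (3.55-fold, edgeR adjusted p = 2.2e-08). Smtn stood at 2.13, 1.77 and 1.97, at 6.22, 6.56 and 11.7 (2.83-fold, edgeR adjusted p = 0.0038) and at 8.96, 10.3 and 10.2 FPKM (3.21-fold, edgeR adjusted p = 2e-07). In each of these 2 genes all mutant libraries lay above all WT libraries, as did 56% of genes with at least 1 FPKM in INSL3-KI and 57.6% in INSL3-KO, and replicate 3 of INSL3-KI was the highest of its group. Cnn1 (2.31-fold and 2.25-fold) and Lmod1 (2.85-fold and 3.72-fold) were called higher in INSL3-KI and INSL3-KO, and Tagln (2.43-fold), Synpo2 (3.31-fold) and Des (3.33-fold) in INSL3-KO. In INSL3-KI these last 3 had log2 fold changes of 0.36 ± 0.16, 1.15 ± 0.27 and 1.16 ± 0.27 (edgeR adjusted p = 0.10, 0.014 and 0.012). On library size alone, without TMM, the all-gene median moved up by 0.64 in INSL3-KO and by 0.47 in INSL3-KI on the log2 scale, and each of the 10 genes kept its direction.

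Myocd at P23 was near the limit of detection, with 4, 10 and 10 counts in WT, 70, 75 and 71 in INSL3-KI and 17, 34 and 30 in INSL3-KO. It was called higher in INSL3-KI (6.19-fold, log2 2.63 ± 0.42, edgeR adjusted p = 0.0040) and not in INSL3-KO (1.05 ± 0.51, edgeR adjusted p = 0.073). Between the mutants it was higher in INSL3-KI (3.09-fold, edgeR adjusted p = 0.0061), where Acta2 was lower (2.37-fold, edgeR adjusted p = 0.0023), and these were the 1 higher and 1 lower of the 10 (backgrounds 25.2% and 13% of 16379). The 5 genes called higher in INSL3-KI against WT fell to 0 without any 1 of the 3 WT libraries and to 1, Myh11, without replicate 1 of INSL3-KI, though Actg2 was called each time. The call of Actg2 in INSL3-KI and all 9 calls in INSL3-KO held without each library in turn.

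At P40, INSL3-KI against WT, both in the first table, gave a like picture. Of the 10 genes 6 were called higher, against 25.6% of the 16677 genes tested, and 1 lower, against 22.1%, with a median log2 fold change of 1.46 beside 0.09. Actg2 stood at 173, 176 and 166 FPKM in WT and at 7.70, 12.2 and 12.2 in INSL3-KI (20.9-fold lower, log2 -4.38 ± 0.22, edgeR adjusted p = 7.5e-05). Acta2 stood at 35.1, 32.9 and 56.2 FPKM in WT and at 121, 213 and 203 in INSL3-KI (2.82-fold, log2 1.5 ± 0.28, edgeR adjusted p = 0.0037), and Myh11 at 5.48, 5.15 and 7.49 against 19.6, 35.8 and 36.7 (3.27-fold, log2 1.71 ± 0.27, edgeR adjusted p = 0.0017). As at P23, the actins moved in opposite directions and no library of the groups overlapped.

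Lmod1 (3.25-fold, edgeR adjusted p = 0.0022), Des (2.97-fold, edgeR adjusted p = 0.0023), Smtn (2.92-fold, edgeR adjusted p = 0.0024) and Cnn1 (2.43-fold, edgeR adjusted p = 0.0032) were also called higher at P40. Myocd (log2 1.42 ± 0.46, edgeR adjusted p = 0.028), Synpo2 (0.75 ± 0.29, edgeR adjusted p = 0.050) and Tagln (0.66 ± 0.29, edgeR adjusted p = 0.081) were not, and in FPKM each INSL3-KI library exceeded each WT library, as it did for 57.7% of the 14614 genes with at least 1 FPKM. Replicate 1 of INSL3-KI was the lowest of its group in all 10 genes. Without it 7 genes were called higher, Myocd in addition. Without replicate 1 of WT 0 genes were called higher and without replicate 2 of WT 2 were, Cnn1 and Myh11, while Actg2 was called each time.

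**Figure D5:**
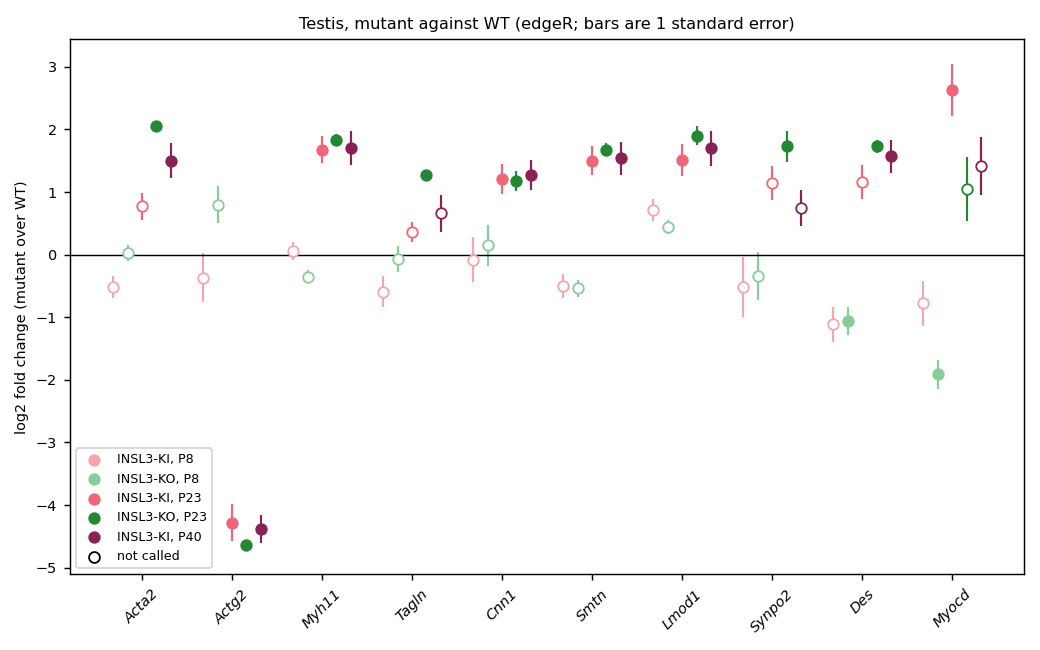
log2 fold change of each gene against WT of the same age in testis (edgeR), with bars of 1 standard error; filled points were called and open points were not. At P23 and P40 Actg2 lies between -4.28 and -4.64, and the other 9 genes lie above 0, while at P8 the points lie between -1.91 and 0.80.

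The effect of INSL3-KI in testis differed between P40 and P8 for 5 of the 10 genes by the interaction term, with 4 higher at P40 (23.2% of 17354 genes) and 1 lower (22.5%). Calls by this term were thus common over all genes, and the 5 calls are not particular to this set. Those with the higher effect at P40 were Des (log2 difference 2.60 ± 0.43, edgeR adjusted p = 0.00047), Smtn (1.96 ± 0.36, edgeR adjusted p = 0.00086), Acta2 (1.94 ± 0.36, edgeR adjusted p = 0.00094) and Myh11 (1.58 ± 0.33, edgeR adjusted p = 0.0019). Actg2 had the lower one (-4.09 ± 0.50, edgeR adjusted p = 7.8e-05). The difference for Myocd, 2.11 ± 0.62, missed the test (edgeR adjusted p = 0.012), as did those of Cnn1, Tagln, Lmod1 and Synpo2 at 0.92 to 1.28.

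Normal growth of the testis ran the other way. From P8 to P40 in WT, 8 of the 10 genes were called lower, against 27.8% of the 16892 genes tested, and 1 higher, against 31.9%. Acta2 was 6.37-fold lower (edgeR adjusted p = 1.4e-05), Myocd 6.74-fold (edgeR adjusted p = 0.00011), Tagln 4.29-fold, Des 4.05-fold, Myh11 3.94-fold, Cnn1 3.75-fold, Smtn 3.28-fold and Lmod1 2.19-fold. Synpo2 fell short of the test (log2 -1.46 ± 0.42, edgeR adjusted p = 0.013). Actg2 alone was higher, at 19.2 ± 8.60 FPKM at P8 and 172 ± 4.78 FPKM at P40 (12.1-fold, log2 3.60 ± 0.33, edgeR adjusted p = 2.3e-05). On library size alone the median of all genes moved by -0.68, and Actg2 still rose.

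The sums of germ cell, Sertoli, fibroblast and endothelial genes moved with these testis values, while those of the mural and Leydig lists did not follow them throughout. The summed FPKM of 8 germ cell genes was 125 to 237 in P8 WT testis, 8108 to 9948 in the libraries labelled P23 WT, 5801 to 7377 in P40 WT, 503 to 779 and 145 to 165 in P23 INSL3-KI and INSL3-KO, and 160 to 451 in P40 INSL3-KI. The 8 Sertoli genes summed to 736 to 761 FPKM in P23 WT, 942 to 2791 in INSL3-KI and 5433 to 5464 in INSL3-KO, and to 606 to 745 in P40 WT against 2916 to 4606 in P40 INSL3-KI. Of the germ cell genes 3, 7 and 4 of 8 were called lower in P23 INSL3-KI, P23 INSL3-KO and P40 INSL3-KI, and of the Sertoli genes 3, 8 and 8 of 8 higher. The 9 fibroblast genes summed to 78.3 to 84.8 FPKM in P23 WT, 306 to 544 in INSL3-KI and 820 to 837 in INSL3-KO, and to 58 to 131 in P40 WT against 400 to 691 in P40 INSL3-KI, with 5, 8 and 3 of 9 called higher. The 10 endothelial genes summed to 11.5 to 13.3, 20.6 to 37.1 and 42.8 to 46.4 FPKM at P23 and to 13.3 to 18.3 against 35.2 to 51.9 FPKM at P40, with 1, 5 and 2 of 10 called higher. The 9 pericyte and vascular mural genes summed to 32.1 to 35 FPKM in P23 WT, 39.3 to 42 in INSL3-KI and 32.5 to 33 in INSL3-KO. At P40 they summed to 34.8 to 40.3 in WT and 40.8 to 45.4 in INSL3-KI. Of the mural genes 2 of 8, 4 of 9 and 5 of 9 were called higher, and 0, 1 and 1 lower. The 6 Leydig genes, Insl3 among them, summed to 1060 to 1225, 162 to 295 and 966 to 982 FPKM at P23 and to 1150 to 1476 against 707 to 920 at P40. Of these 0, 3 and 3 were called higher and 3, 1 and 1 lower. The 10 epididymal genes summed to 208 to 212 FPKM in P23 WT, 8.6 to 25 in INSL3-KI and 29.3 to 30.1 in INSL3-KO. At P40 they summed to 111 to 122 in WT and 11.5 to 14 in INSL3-KI. The 6 adipocyte genes summed to 96 to 97.7, 17.5 to 51 and 19.4 to 21.3 FPKM at P23. At P40 their sums were 110 to 116 against 23.5 to 80.3. Of the epididymal genes tested, 1 of 2, 2 of 3 and 1 of 2 were called lower. Of the adipocyte genes 1, 2 and 1 were lower and 1 each time higher. Over all genes tested 8.81%, 31.1% and 25.6% were called higher and 11.8%, 33.4% and 22.1% lower. The endothelial counts in INSL3-KI and the fibroblast count at P40 lay near these shares. In WT testis from P8 to P40, 9 of 9 fibroblast and 9 of 10 endothelial genes were called lower, and 7 of 8 germ cell genes higher. The 8 duct epithelium genes summed to 22.6 to 23.7 FPKM in P23 WT, 23.7 to 27.2 in INSL3-KI and 22.1 to 23 in INSL3-KO. At P40 they summed to 23.5 to 25.2 in WT and 24.3 to 28.9 in INSL3-KI. Actg2 was thus high in the WT libraries rich in germ cell genes, where the epididymal and adipocyte sums also exceeded those of the mutants. The other 9 were higher in the mutant libraries, where the sums of Sertoli, fibroblast and endothelial genes were also higher. The part of cell content in these differences was not tested.

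The FPKM of Actg2 assumed a shorter transcript in some testis groups. The implied length was 1167 to 1269 bases in P23 WT and 1140 to 1167 in P40 WT testis, against 1344 to 1378 in all 15 gubernaculum libraries and 1361 to 1377 in P8 WT testis. In P40 INSL3-KI and P23 INSL3-KO testis it was 1340 to 1377 and 1398 to 1421, and in P23 INSL3-KI testis, at 1223 to 1343, it overlapped P23 WT. The longest annotated coding transcripts of Actg2 have 1333 and 1273 bases.

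The counts of related genes called in the mutant testes stand beside those over all genes, of which 31.1% were higher in P23 INSL3-KO, 8.81% in P23 INSL3-KI and 25.6% in P40 INSL3-KI. Of the 29 contractile apparatus genes 21 were higher and 1 lower in P23 INSL3-KO, 10 and 2 in P23 INSL3-KI and 19 and 0 in P40 INSL3-KI. Of the signalling genes the counts were 11 higher and 3 lower of 20, 3 and 3 of 21, and 9 and 2 of 21, and of the 18 regulators 10 and 3, 4 and 2, and 12 and 3. Cnn3, a non-muscle calponin gene, was higher by 3.95, 1.99 and 2.94 on the log2 scale in P23 INSL3-KO, P23 INSL3-KI and P40 INSL3-KI (edgeR adjusted p = 7.1e-12, 0.0070 and 0.0012). Smad3 was higher by 1.63 and 2.29 in INSL3-KI at P23 and P40 (edgeR adjusted p = 0.0095 and 0.00049), Gucy1b1, a subunit of the nitric oxide receptor, by 3.11 in P23 INSL3-KO and 2.33 in P40 INSL3-KI (edgeR adjusted p = 1.1e-08 and 0.00056), Irag1 by 1.86 in P23 INSL3-KI (edgeR adjusted p = 0.0027) and Hspb1 by 3.01 in P23 INSL3-KO (edgeR adjusted p = 5.7e-11).

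The largest falls in the mutant testes were shared by Klf5, Pln and Agtr1a. Klf5, a zinc finger factor, had log2 fold changes of -5.29 in P23 INSL3-KO, -2.81 in P23 INSL3-KI and -3.48 in P40 INSL3-KI (edgeR adjusted p = 8.4e-10, 0.0030 and 0.00018). Pln, the inhibitor of the calcium pump, had -4.35, -2.37 and -3.84 (edgeR adjusted p = 1.2e-09, 0.0042 and 0.00017), and the angiotensin receptor gene Agtr1a -3.67, -2.62 and -3.98 (edgeR adjusted p = 6.1e-10, 0.0050 and 2.2e-05). Mrtfa was called lower in P23 INSL3-KO (-1.5, edgeR adjusted p = 1.6e-08) and P40 INSL3-KI (-1.43, edgeR adjusted p = 0.00087), Mrtfb was called higher in P40 INSL3-KI (1.04, edgeR adjusted p = 0.0094), and Srf was called in none of the 3, with log2 fold changes between -0.28 and -0.11.

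Among themselves the genes varied together apart from a few. Over the 15 gubernaculum libraries the median Pearson correlation of log2(CPM + 1) with the other 9 genes was 0.80 to 0.91 for Acta2, Actg2, Myh11, Tagln, Cnn1, Lmod1 and Myocd, 0.54 for Smtn, 0.35 for Synpo2 and -0.40 for Des. Over the 24 testis libraries it was 0.79 to 0.93 for 9 genes and -0.67 for Actg2. Actg2 and Cnn1, whose correlation reached 0.99 in gubernaculum, thus parted in testis. These values describe libraries that share depth, groups and tissue content, and carry no test. Over the 13 group means, among the genes outside the set most like the mean of the 10 standardised profiles, of 11623 compared, were Fam84b (r = 0.986), Foxred2 (0.984), Lepr (0.971), Ckb (0.969), Osbpl6 and Mrvi1, which is the older symbol of Irag1 above (0.968), Tspan2 (0.967), and Cpxm2 and Nrp2 (0.965). The members' own correlation with that profile ran from 0.55 (Actg2) and 0.72 (Des) to 0.99 (Tagln).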

How the data were processed

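RNA was taken with TRIzol, made into poly(A) libraries and sequenced as 150-base pairs on a NovaSeq, and the submitters' processing notes name HISAT2 and GRCm38. The counter and annotation are not given in the sources used here. The authors deposited, per gene and library, raw read counts, which are not normalised, and FPKM, in 2 tables of 27 and 12 libraries; these were joined on the Ensembl ID (21561 genes, 94.16% to 97.86% of the counts). Library totals were 29861447 to 45260372, which limits the precision of genes with few counts.

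For each comparison the counts of its groups were fitted with edgeR 4.0.16 (TMM, filterByExpr at 10 counts and 15 in total, quasi-likelihood test, two-sided) in R 4.3.3, with Benjamini-Hochberg adjustment over all genes tested. The interactions used the 4 groups of a tissue. Every p-value named edgeR comes from this test. The alternatives were DESeq2 1.42.0, library size alone, no filter, limma 3.58.1 on log2(FPKM + 1), 1 fit of all groups from the same tissue, a block for the replicate number, and each library left out; leaving out 2 libraries together was added after seeing the data. On data simulated for the P8 gubernaculum comparison of INSL3-KI with WT, with 15652 genes, 34% of 2-fold and 100% of 4-fold changes were called, with 0 false calls. The simulation gave every gene the same spread, changed only well-counted genes and had no library that stood apart. The real libraries differ in all of these, so these shares check the code and do not measure the test on these data.

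The 10 genes and the gene lists were chosen with earlier results of these data known. All 10 genes are named in each comparison with WT, and from the 3 lists of related genes up to the 3 largest changes among the calls in each direction, with Srf, Mrtfa and Mrtfb by their values; the lists of other cell types are given by sums and counts. The most alike genes are the 10 with the highest Pearson correlation over group means of log2(CPM + 1), of which 1 is not reported here. In the comparisons of replicate numbers between groups, no comparison had libraries of the same number deviating together for all 3 numbers.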

Additional observations from a re-analysis of the deposited data

Results flagged for a closer look

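The effect of INSL3-KI in testis differed between P40 and P8 by the interaction term (edgeR) for Acta2 (log2 difference 1.94, adjusted p = 0.00094), Myh11 (1.58, adjusted p = 0.0019), Smtn (1.96, adjusted p = 0.00086) and Des (2.60, adjusted p = 0.00047), higher at P40, and for Actg2 (-4.09, adjusted p = 7.8e-05), lower at P40. Of the 17354 genes tested, 23.2% were called higher and 22.5% lower by this term.

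In 9 further pairs every mutant library lay on one side of WT in one setting and on the opposite side in the other, and these differences were not tested. Des was below WT in P23 INSL3-KI gubernaculum and above it in P23 INSL3-KI testis, with log2 fold changes 4.35 apart, and below in P8 but above in P23 INSL3-KI testis (2.27 apart). In P8 INSL3-KO, Myh11 and Myocd were above WT in gubernaculum and below it in testis, with testis minus gubernaculum at -5.57 and -2.88. From P8 to P23 INSL3-KO testis, the log2 fold change of Actg2 went from above to below WT (-5.44), and those of Myh11 (2.18), Smtn (2.22), Des (2.79) and Myocd (2.96) from below to above. Each of these pairs but that of gubernaculum and testis in P8 INSL3-KO uses the libraries labelled P23 WT testis.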

How the results depend on the processing

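Between library size and the default scaling, the all-gene median moved on the log2 scale by -0.68 (WT testis, P40 against P8) to 0.64 (P23 INSL3-KO testis), and the share of higher calls among all calls went from 59.8% to 73.5% in P8 INSL3-KI gubernaculum, from 42.6% to 71.3% in P23 INSL3-KI testis, from 48.2% to 61.3% in P23 INSL3-KO testis and from 53.6% to 72.8% at P40. Over the alternatives other than leaving out a library, calls on members were kept in 417 cases and lost in 33, and uncalled values stayed so in 446, were called in 51 and changed sign in 13. With a library left out, calls were kept in 407 cases and lost in 73, and uncalled values stayed so in 573, were called in 22 and changed sign in 25. No called value changed sign. Where a value changed, the cause was not tested. A depth of 29861447 or more counts per library left few counts for Myocd in testis, with as few as 4.

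Of the counts of members called, library size alone gave 1 lower for P8 INSL3-KO against WT testis, 0 lower for P8 INSL3-KI against INSL3-KO testis, 8 higher for P23 INSL3-KI against WT testis, 2 lower and 0 higher for P23 INSL3-KI against INSL3-KO testis, and 8 higher for the testis interaction. With limma, the members called were 0 lower for P8 INSL3-KO against WT testis, 0 lower for P8 INSL3-KI against INSL3-KO testis, 2 lower and 0 higher for P23 INSL3-KI against INSL3-KO testis, and 2 higher for WT gubernaculum with age. DESeq2 called 1 member lower and 1 higher in P23 INSL3-KI gubernaculum, 1 lower in P8 INSL3-KI testis and 5 lower in the gubernaculum interaction. All groups in 1 fit gave 0 members lower in P8 INSL3-KI gubernaculum, 2 higher for P8 INSL3-KI against INSL3-KO gubernaculum, 1 lower and 2 higher in P23 INSL3-KI gubernaculum, 1 lower in P8 INSL3-KI testis, 2 lower in the gubernaculum interaction and 7 higher in the testis interaction.

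In no comparison did all 3 pairs of libraries with the same replicate number deviate together by a correlation over 0.1. Single pairs reached 0.41 in P8 INSL3-KI against WT testis and 0.40 in P23 INSL3-KI against WT gubernaculum. Whether the libraries were paired is therefore not known. With the number as a replicate block, the members called were 0 lower for P8 INSL3-KI against INSL3-KO testis, 1 higher for P23 INSL3-KI against WT testis, 0 higher for P23 INSL3-KI against INSL3-KO testis and 0 higher for WT gubernaculum with age. Under the block, the uncalled log2 fold changes of Acta2 and Myocd in WT gubernaculum with age became -0.29 and -0.16, and that of Cnn1 in P8 INSL3-KI testis 0.03.

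Other uncalled log2 fold changes that changed sign were Acta2 in WT gubernaculum with age (-0.02 on library size, -0.38 with limma), Cnn1 in P8 INSL3-KI testis (0.04 and 0.09), Tagln in P8 INSL3-KO testis (0.06 with both), Cnn1 in P23 INSL3-KI against INSL3-KO testis (-0.11 on library size), Synpo2 in P8 INSL3-KO gubernaculum (0.34 with limma), and, in 1 fit, Myh11 in P8 INSL3-KI testis (-0.01) and Smtn in P8 INSL3-KI against INSL3-KO testis (-0.003).

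With each library left out in turn, the members called ranged from 1 to 2 lower and 0 to 1 higher for P8 INSL3-KO testis, 0 to 1 lower and 0 to 1 higher for P8 INSL3-KI against INSL3-KO testis, 0 to 5 higher for P23 INSL3-KI testis, 0 to 1 lower and 0 to 1 higher for P23 INSL3-KI against INSL3-KO testis, 0 to 7 higher at P40, 0 to 4 higher for WT gubernaculum with age and 0 to 2 lower for the gubernaculum interaction. Without the 2 libraries that stood apart in P23 gubernaculum, picked after seeing these values, 3 members were higher there and 4 lower in the interaction. In that interaction the differences of Acta2, Myocd and Smtn became 0.07, 0.95 and 0.29. The uncalled log2 fold changes that changed sign ranged from -0.84 to 0.44 for Acta2 and -0.93 to 0.89 for Myocd in WT gubernaculum with age, and from -1.70 to -0.38 for Acta2, -1.71 to 0.49 for Myocd and -0.31 to 0.26 for Smtn in the gubernaculum interaction. In P8 INSL3-KI testis they ranged from -0.70 to 0.05 for Actg2, -0.43 to 0.34 for Cnn1 and -0.06 to 0.21 for Myh11, and in P8 INSL3-KO testis from -0.06 to 0.18 for Acta2, -0.13 to 0.55 for Cnn1, -0.64 to 0.13 for Synpo2 and -0.23 to 0.22 for Tagln. Between INSL3-KI and INSL3-KO testis they ranged from -0.26 to 0.05 for Des and -0.12 to 0.16 for Smtn at P8 and from -0.06 to 0.20 for Cnn1 at P23.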
